A study of Mus musculus with 4 samples.

Results

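The mRNAs described here code for the enzymes that carry mitochondrial citrate into fat: the citrate carrier Slc25a1, ATP citrate lyase Acly, the acetyl-CoA carboxylases Acaca and Acacb, fatty acid synthase Fasn, the stearoyl-CoA desaturases Scd1 and Scd2, the elongase Elovl6 and the diacylglycerol acyltransferases Dgat1 and Dgat2. They were chosen by role, as the steps from citrate export to triglyceride formation, and all that had a row in the deposited table were taken. Of these 10 genes, 9 were among the 15746 genes listed and 8 among the 12150 tested. Elovl6 had no row, and Slc25a1 was listed but did not reach the minimum of 10 normalized counts in at least 2 libraries.

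The libraries were made from hearts of wild-type (WT) mice, with no allele or treatment besides the fractionation, and the age and the number of animals behind a library are not given in the sources used here beyond the word adult. Total RNA was sequenced from isolated mitochondria in 2 libraries and from the remaining heart tissue, called rest, in another 2. The rest fraction was the low-speed pellet of the homogenate, which the paper describes as cell debris. The supernatant left after the mitochondria were pelleted was removed, so soluble cytosol released into it was not sequenced. How much cytosol stayed in the low-speed pellet is not given. The isolated mitochondria were treated with digitonin and RNase A before RNA extraction, and their RNA was fragmented for a time of its own. These handling steps went with the fraction and cannot be told apart from it. The study asked which RNAs are found with heart mitochondria, and it later linked one of them, a long noncoding RNA, to branched-chain amino acid breakdown and to ACLY activity, which is the reason for looking at lipid synthesis here.

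Fatty acids are built in the cytosol, but their carbon leaves the mitochondrion as citrate. SLC25A1 moves citrate across the inner membrane, ACLY splits it into oxaloacetate and acetyl-CoA, and a carboxylase adds carbon dioxide to make malonyl-CoA. ACACA supplies malonyl-CoA to FASN in the cytosol, whereas ACACB is held at the outer mitochondrial membrane by a hydrophobic leader, and its malonyl-CoA restrains the entry of fatty acids into the mitochondrion. The heart burns far more fat than it makes, so the carboxylase of the outer membrane has a prominent place in heart metabolism. All 10 enzymes are encoded in the nucleus, and their mRNAs are translated outside the mitochondrial matrix.

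The starts of 3 coding sequences are shown because their products meet the mitochondrion differently: the carrier sits in the inner membrane, ACACB at the outer membrane and ACACA in the cytosol. They are the first 60 coding bases of the main transcript in the GENCODE M21 annotation of GRCm38 (mm10), with the start codon in capitals. The Slc25a1 stretch lies in exon 1 at chr16:17928020-17928079 on the minus strand, that of Acacb in exon 2 at chr5:114165518-114165577 on the plus strand, and that of Acaca in exon 3 at chr11:84195464-84195523 on the plus strand.
Slc25a1: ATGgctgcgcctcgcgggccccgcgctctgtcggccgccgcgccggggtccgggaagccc
Acacb: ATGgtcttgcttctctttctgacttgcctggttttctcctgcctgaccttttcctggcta
Acaca: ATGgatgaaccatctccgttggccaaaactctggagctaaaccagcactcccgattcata
Codons with T as their second base code for hydrophobic residues. Among the first 20 codons, Acacb had 13 of these, the highest number of the 10 genes, against 6 in Acaca and 2 in Slc25a1. In the first 60 bases, 27 of Acacb's were T against 13 of Acaca's. 

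Values are normalized counts: read counts that the authors scaled with library-specific size factors and rounded. The normalized counts that 1 read was worth were estimated by a fit to how often each low value occurs. They came to 3.87 and 2.55 in mitochondria replicates 1 and 2 and 0.264 and 0.365 in rest replicates 1 and 2. The same normalized count therefore rests on far fewer reads in the mitochondrial libraries, where 93.5 to 97.6% of the total came from genes of the mitochondrial chromosome, compared with 63.2 to 67.5% in the rest libraries. Reads on genes came to an estimated 23500000 to 47400000 a library. Each fraction has n = 2, replicates may be technical because nothing says they came from separate animals, and p-values measure the spread between these libraries only. Over tested genes the median absolute log2 difference between replicates was 0.52 in mitochondria and 0.23 in rest. The tests and intervals nevertheless used 1 estimate of the spread for both fractions. All 9 cardiomyocyte markers were listed, led by Myh6 at 174838 and 128576 normalized counts in mitochondria and 184487 and 161461 in rest. The 9 summed to 298460 and 222434 in mitochondria and 244777 and 214852 in rest. Their log2 fold changes (mitochondria over rest) had a median of 0.88 and ran from -1.35 to 1.88.

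Across the pathway, no member was called higher in mitochondria and 1 of 8 tested, Acacb, was called lower at an adjusted p under 0.05. Over all tested genes, 2.16% were called higher and 1.39% lower. The log2 fold changes of the 8 members (mitochondria over rest) had a median of -0.51, beside -0.14 over all 12150 tested genes. For 5 of the 8 members (Acly, Acaca, Acacb, Fasn and Dgat1) both mitochondrial values lay below both rest values, and for none above. The same held for 33.4% of all tested genes below and 27.7% above. In bulk RNA, fewer cells of a type and less RNA per cell cannot be told apart, and size factors set each library's scale by its other genes. The values are therefore relative levels in fractions of heart tissue, not levels of expression per cell.

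**Figure D1:**
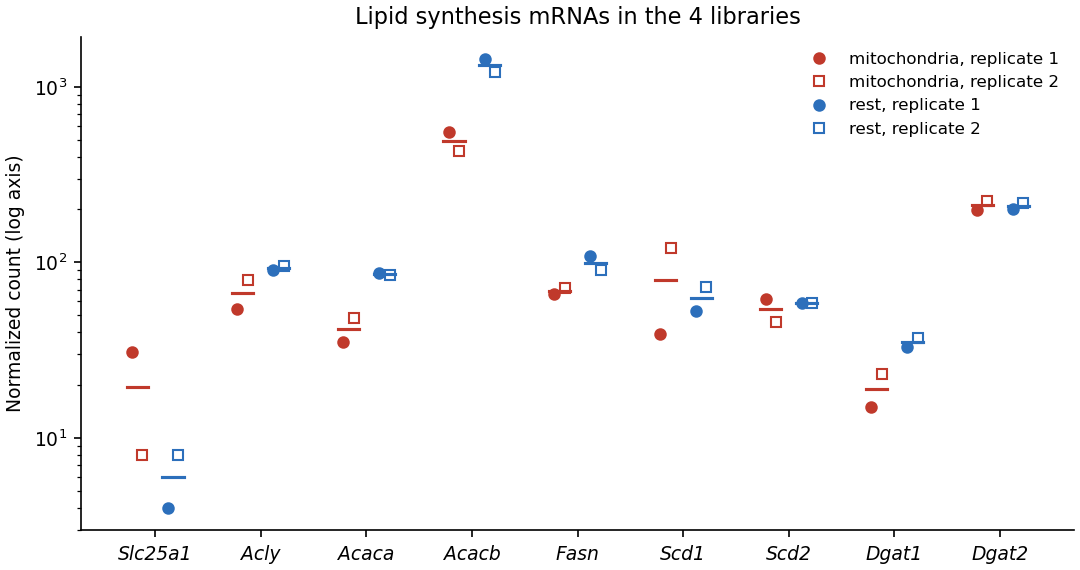
Normalized counts (log axis) of the 9 listed genes in the 4 libraries, with mitochondria in red and rest in blue, replicate 1 as filled circles, replicate 2 as open squares and a bar at each mean. Acacb is the highest in rest at 1436 and 1217 and its mitochondrial points at 550 and 431 lie well below, whereas the points of Dgat2 lie between 198 and 224 in all 4 libraries.

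Acacb had the most normalized counts of the members in every library and the largest difference between the fractions. It had 550 and 431 normalized counts in mitochondria (about 142 and 169 reads) and 1436 and 1217 in rest (about 5434 and 3330 reads). Both mitochondrial values lay far under both rest values, and the replicates of each fraction were close to each other. Means were 490.5 ± 84.1 in mitochondria and 1327 ± 155 in rest (SD, n = 2). Taken from the means of log2(normalized count + 1), the level was 2.71-fold lower in mitochondria. The log2 fold change was -1.44 (SE 0.21, 95% interval -1.98 to -0.90), with an adjusted p of 0.0469 from limma, which fits all genes and shares an estimate of the spread among them. Of all tested genes, 10.1% had a more negative log2 fold change. The call is close to the threshold: the adjusted p was 0.0595 with 0.1 in place of 1 added before the logarithm, and leaving out any of the 4 libraries gave 0.0624 to 0.526, with the log2 fold change between -1.61 and -1.26.

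Acaca, the cytosolic carboxylase, had 35 and 48 normalized counts in mitochondria and 87 and 85 in rest. The fractions did not overlap. The log2 fold change was -1.05 (SE 0.26, 95% interval -1.74 to -0.36), with an adjusted p of 0.0832, and among genes with a mean above 50 normalized counts it passed at 0.0454. Its level is uncertain for another reason. Of the 9439 stretches of 75 bases (the read length) in its main transcript, 47.4% also occur in the processed pseudogene Gm5182, and reads that align to several places were excluded by the authors. Gm5182 itself was listed at 8 and 5 in mitochondria and at 13 and 11 in rest.

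Per kilobase of merged exons, Acacb exceeded Acaca 27.9-fold and 15.9-fold in mitochondria and 29.3-fold and 25.4-fold in rest. By the length of the longest annotated transcript, which for Acaca is 9513 bases against 17074 of merged exons, the ratio of the means was 12.8 in mitochondria and 16.7 in rest. Counted per 1000 positions whose 75 bases occur in no other annotated gene, a measure added after the data were seen, Acacb stood at 56.3 and Acaca at 8.36 in mitochondria, and at 152 and 17.3 in rest. The ratio of Acacb to Acaca was then 6.73 in mitochondria and 8.78 in rest. Acacb was the more abundant carboxylase mRNA by all 3 measures, and the size of its lead depended on the length taken and on the removal of shared positions. Identity between the coding sequences was 72.8% over 6897 aligned bases, and their longest identical run, 29 bases, is shorter than a read.

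Slc25a1, which exports the citrate, was hardly sampled. It had 31 and 8 normalized counts in mitochondria and 4 and 8 in rest, or about 8 and 3 reads against 15 and 22. The values of the fractions met at 8, and mitochondria replicate 1 alone was high. The mean was 19.5 ± 16.3 in mitochondria and 6.0 ± 2.83 in rest. Its log2 fold change of 1.34 had an adjusted p of 0.376 when no filter was applied, so no difference was detectable at this depth. Since 1 read in mitochondria replicate 1 is worth 3.87 normalized counts, 3 reads there already make 11.6.

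Acly, which opens the cytosolic part of the pathway, had 54 and 79 normalized counts in mitochondria and 90 and 95 in rest. Both mitochondrial values were below both rest values, on about 14 and 31 reads against 341 and 260. The log2 fold change was -0.49 (SE 0.27, 95% interval -1.20 to 0.22), with an adjusted p of 0.285. The kinase and the phosphatase that the study ties to ACLY did not pass either. The study measured ACLY phosphorylation and activity in hearts with and without the long noncoding RNA, and compared the mRNAs between tissues. The values here are mRNA levels in fractions of WT hearts. Bckdk, the kinase of the branched-chain dehydrogenase, had 77 and 102 in mitochondria and 68 and 58 in rest (log2 fold change 0.49, adjusted p 0.266). Ppm1k, its phosphatase, had 569 and 296 in mitochondria and 366 and 319 in rest (0.26, adjusted p 0.638). The fractions overlapped for Ppm1k and not for Bckdk.

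The 3 nuclear protein-coding genes whose pattern over the 4 libraries was nearest to that of Acly, out of 10611 compared, were Ptpn2, Hmgxb4 and Tbk1. Likeness was the root mean square difference in log2(normalized count + 1) after each gene was centred on its own mean, and it came to 0.0221, 0.0281 and 0.0300. With 4 values a gene, such closeness is a description only.

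Fasn, the multidomain synthase that builds palmitate, had 66 and 71 normalized counts in mitochondria and 108 and 90 in rest. The fractions did not overlap, and the mitochondrial replicates were close. The log2 fold change was -0.52 (SE 0.22, 95% interval -1.10 to 0.06), with an adjusted p of 0.194. Acacb exceeded Fasn per kilobase 9.47-fold and 6.90-fold in mitochondria and 15.1-fold and 15.4-fold in rest.

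The desaturases introduce the first double bond into saturated fatty acids. Scd1 had 39 and 120 normalized counts in mitochondria and 53 and 72 in rest. The mitochondrial replicates lay on either side of both rest values, about 10 reads in replicate 1 and 47 in replicate 2. The log2 fold change was 0.15 (SE 0.58, 95% interval -1.37 to 1.67), and it turned to -0.65 without mitochondria replicate 2 and to -0.069 without rest replicate 1. Scd2 was steadier, at 62 and 46 in mitochondria and 59 in both rest libraries. Its log2 fold change was -0.14 (95% interval -0.83 to 0.55, adjusted p 0.743), and it turned to 0.070 without mitochondria replicate 2.

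Scd1 and Scd2 lie near each other on chromosome 19 and share sequence, which bears on how well their reads can be separated. Their coding sequences were 90.7% identical over 1064 aligned bases. The longest identical stretch, 147 bases across the junction of exons 4 and 5, is shown in capitals with the 3 bases on each side. In GRCm38 the ends of the Scd1 stretch are at chr19:44400338-44401808 on the minus strand and those of the Scd2 stretch at chr19:44299699-44301248 on the plus strand, each span with an intron inside.
Scd1: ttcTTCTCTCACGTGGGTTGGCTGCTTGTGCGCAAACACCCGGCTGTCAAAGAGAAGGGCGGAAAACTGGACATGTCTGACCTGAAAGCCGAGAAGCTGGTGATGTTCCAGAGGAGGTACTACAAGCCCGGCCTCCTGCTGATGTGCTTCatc
Scd2: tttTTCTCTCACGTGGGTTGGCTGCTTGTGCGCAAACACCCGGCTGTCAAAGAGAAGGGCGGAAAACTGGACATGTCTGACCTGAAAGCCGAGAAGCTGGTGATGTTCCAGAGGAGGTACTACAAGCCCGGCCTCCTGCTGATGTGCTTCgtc
A read of 75 bases inside the capitals fits both genes and would have been excluded. Such stretches were few: 3.24% of those in the Scd1 transcript and 1.80% of those in the Scd2 transcript also occur in another gene. Per kilobase, the ratio of Scd1 to Scd2 was 0.703 and 2.91 in mitochondria and 1.00 and 1.36 in rest, so neither desaturase mRNA was consistently the more abundant.

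The acyltransferases that close the pathway by making triglyceride from diacylglycerol are unrelated in sequence, with a longest identical coding run of 11 bases. Dgat1 had 15 and 23 normalized counts in mitochondria and 33 and 37 in rest, from about 4 and 9 reads against 125 and 101. The fractions did not overlap, but the log2 fold change of -0.88 (SE 0.35, 95% interval -1.80 to 0.05) had an adjusted p of 0.181. Dgat2 had 198 and 224 in mitochondria and 200 and 217 in rest. Its values interleaved, and the log2 fold change was 0.02 with a 95% interval of -0.46 to 0.49 (adjusted p 0.959). Per kilobase, Dgat2 exceeded Dgat1 13.1-fold and 9.65-fold in mitochondria and 6.01-fold and 5.81-fold in rest. Both mitochondrial ratios were above both rest ratios. An exact permutation test of 2 against 2 libraries cannot give a p under 0.333, and no other test of this difference in ratio was run.

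**Figure D2:**
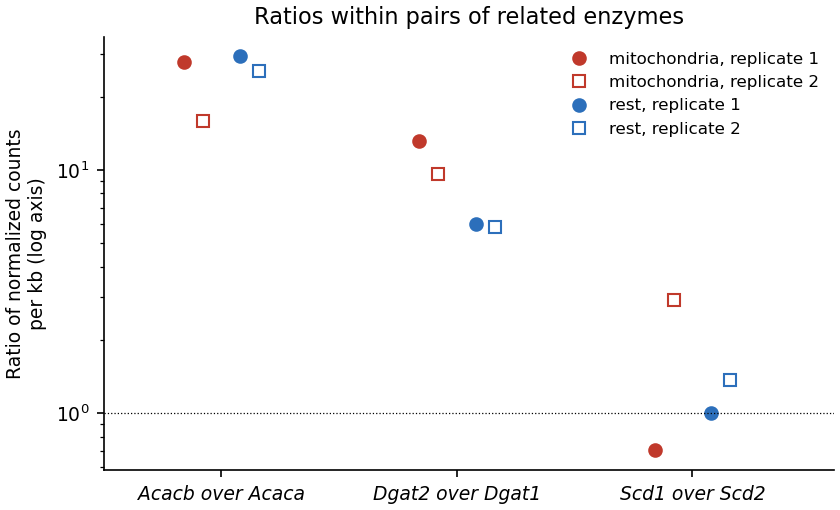
Ratio of normalized counts per kilobase of merged exons (log axis) within 3 pairs of enzymes in each library, mitochondria in red and rest in blue. Acacb over Acaca is above 15 in all 4 libraries, Dgat2 over Dgat1 is higher in both mitochondrial libraries (13.1 and 9.65) than in rest (6.01 and 5.81), and Scd1 over Scd2 lies on both sides of 1.

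**Figure D3:**
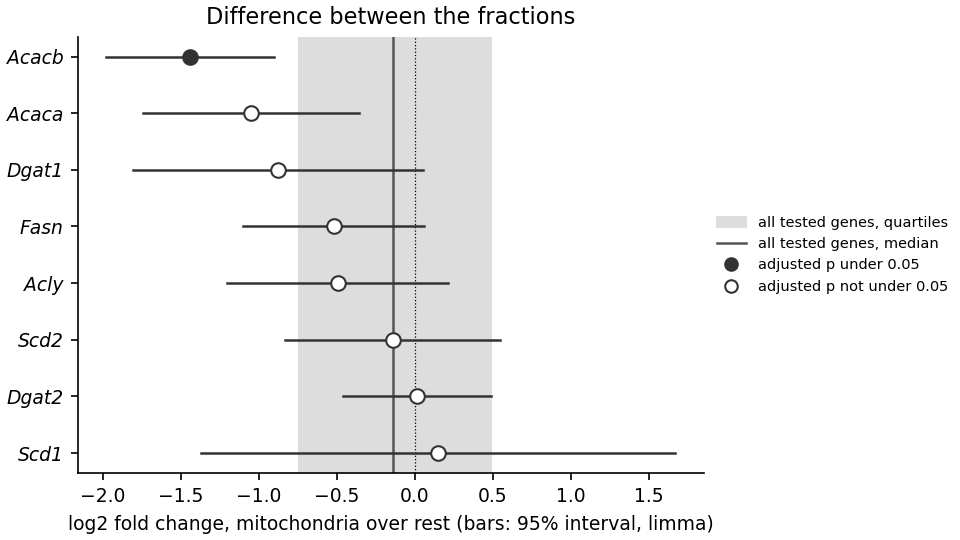
Log2 fold change of each of the 8 tested genes, mitochondria over rest, with its 95% interval from limma, a filled point for an adjusted p under 0.05, and the median and quartiles of all 12150 tested genes behind. Acacb is the only filled point, and the intervals of Acacb and Acaca alone stay below 0.

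Ordered by level per kilobase in the rest fraction, Acacb came first at 138 ± 16.1 normalized counts, followed by Dgat2 at 67.6 ± 3.9 and Acly at 17.5 ± 0.670. Scd1 (12.8 ± 2.75), Dgat1 (11.5 ± 0.926) and Scd2 (10.8 in both libraries) came next and did not differ from each other beyond their spread on this length. By the longest transcript Dgat1 stood at 18.5, above Scd1 at 12.9 and Scd2 at 10.8, so the place of Dgat1 depended on the length taken. Fasn followed at 9.04 ± 1.16, then Acaca at 5.04 ± 0.0828 and Slc25a1 at 2.77 ± 1.31. In mitochondria the first places were exchanged, with Dgat2 at 68.4 ± 5.96 and Acacb at 50.9 ± 8.74, and the order after them was Scd1, Acly, Scd2, Slc25a1, Fasn, Dgat1 and Acaca. Among these, Scd1 (16.3 ± 11.7), Acly (12.6 ± 3.35), Scd2 (9.88 ± 2.07) and Slc25a1 (9.01 ± 7.52) overlapped. Fasn (6.26 ± 0.323) and Dgat1 (6.22 ± 1.85) were level and lay between the Slc25a1 values of 14.3 and 3.70. By the longest transcript Dgat1 stood at 10.1 in mitochondria, above Scd2 at 9.90 and Fasn at 6.82. The place of Dgat1 thus depended on the length in mitochondria too. By unique positions rather than merged exons, Acaca stood at 17.3 in rest, between Dgat1 at 19.3 and Scd1 at 13.6.

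Exon length moved with the fold change over all genes. Nuclear protein-coding genes with under 2 kb of merged exons had a median log2 fold change of 0.85, those of 2 to 4 kb 0.19, of 4 to 6 kb -0.17, of 6 to 8 kb -0.33 and those over 8 kb -0.55. Acacb, Acaca and Fasn belong to the longest class, in which 3.05% of 2331 genes were called lower. Fasn lay near the median of its class, while Acaca and Acacb lay under its lower quartile of -0.97. Dgat1, of 2 to 4 kb, lay under the lower quartile of its class, -0.35, whereas Dgat2, Acly, Scd1 and Scd2 lay between the quartiles of theirs. With genes classed by their longest transcript instead, 5.91% of the 761 genes over 8 kb were called lower and their lower quartile was -1.07, so that Acacb lay under it and Acaca did not. Dgat1 was again under the lower quartile of its class, and Scd1 lay above the upper quartile of its class, 0.083. Among the 472 nuclear protein-coding genes with a mean of at least 500 normalized counts, to which Acacb belongs, the median was 0.25 and 20 were called lower. The part of length in these differences was not tested.

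**Figure D4:**
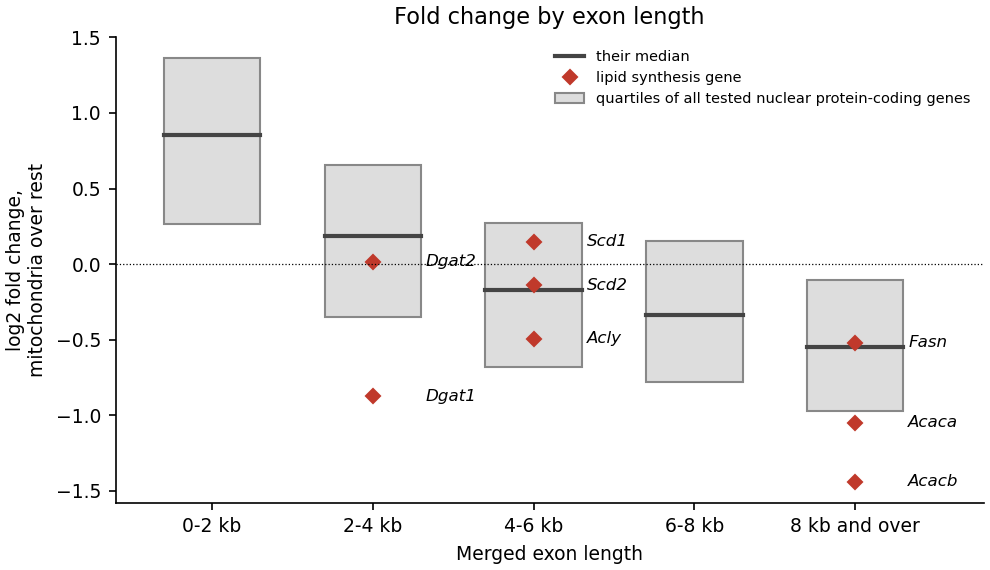
Log2 fold change, mitochondria over rest, by merged exon length. Boxes span the quartiles of tested nuclear protein-coding genes with the median as a line, and diamonds are the lipid synthesis genes. The medians fall from 0.85 under 2 kb to -0.55 over 8 kb, and Acacb, Acaca and Dgat1 lie below the boxes of their classes.

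Genes around the pathway were grouped in 8 lists of 120 genes, of which 110 were listed and 105 tested. In these lists 1 gene was called higher and 1 lower. Fold change moved with exon length over all genes, and the exon lengths of the lists were not compared. Their median log2 fold change was 0.05; 32.4% lay above without overlap and 17.1% below, beside 27.7% and 33.4% of all tested genes. The gene called higher was Mpc2, a subunit of the carrier that brings pyruvate into mitochondria, with 554 and 597 normalized counts in mitochondria and 219 in both rest libraries (log2 fold change 1.39, adjusted p 0.0427). The gene called lower was Gpam, which puts the first fatty acid on glycerol phosphate at the outer mitochondrial membrane, with 267 and 230 in mitochondria and 554 and 570 in rest (-1.18, adjusted p 0.0469).

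The 18 genes of precursor and NADPH supply, all tested, had a median log2 fold change of 0.22. Of these 18, 8 lay above without overlap and 0 below, beside 27.7% and 33.4% of all tested genes. Idh2, which makes mitochondrial NADPH, was the highest per kilobase of this list, at 4675 and 2650 in mitochondria and 2541 and 1845 in rest (adjusted p 0.246). The share above was larger in mitochondrial fatty acid synthesis (4 of 7, 0 below) and in lipid droplet and lipolysis genes (6 of 12, 2 below). Of the 19 glycerolipid enzymes, 2 lay above and 5 below. The 12 genes that control citrate lyase and carboxylase had a median of 0.17. Their highest per kilobase, Mid1ip1, which promotes carboxylase polymerization, had 240 and 138 in mitochondria and 124 and 97 in rest (adjusted p 0.219). No gene of this list was called.

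For the use of malonyl-CoA, 6 of 7 genes were listed, with a median of -0.04 and none called. Cpt2, the inner-membrane carnitine acyltransferase, was their highest, at 461 and 388 in mitochondria and 297 and 255 in rest (adjusted p 0.118). Cpt1b, the muscle enzyme that malonyl-CoA inhibits, was singled out after its values were seen: it stood at 0 and 8 in mitochondria and 10 and 16 in rest. Of its 3372 exon bases, 2744 are shared with Gm44502 on the same strand, and reads on several genes were excluded, so its level cannot be read from this table. The log2 fold change of Cpt1b, -2.19, still entered the median of the malonyl-CoA list. Without Cpt1b the middle value of that list was 0.19. The 7 tested genes of mitochondrial fatty acid synthesis, a separate matrix pathway, had a median of 0.63 and ran from 0.24 for Mcat to 1.07 for Ndufab1. Over all tested genes the quartiles were -0.74 and 0.49, and over nuclear protein-coding genes under 2 kb of merged exons 0.26 and 1.36. The exon lengths of this list were not compared. Ndufab1, the acyl carrier protein, had 279 and 378 in mitochondria and 131 and 182 in rest (adjusted p 0.0824). None of the 7 was called.

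The 16 transcription factors and regulators had a median of -0.25 and none called, with Usf2 highest per kilobase, at 174 and 117 in mitochondria and 80 and 83 in rest (adjusted p 0.133). The 15 tested enzymes of elongation and desaturation besides the members had a median of 0.02. Tecr, the reductase of the last elongation step, was closest to a call, at 364 and 365 in mitochondria and 184 and 172 in rest (log2 fold change 1.03, adjusted p 0.0511). The 19 tested glycerolipid enzymes had a median of -0.47, the lowest of the 8 lists, with Gpam called; Acsl1, the main heart acyl-CoA synthetase, had 953 and 793 in mitochondria and 1242 and 1244 in rest (adjusted p 0.138). The 12 tested lipid droplet and lipolysis genes had a median of 0.25, with Pnpla2, the lipase that opens triglyceride breakdown, at 608 and 449 in mitochondria and 333 and 284 in rest (adjusted p 0.109).

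**Figure D5:**
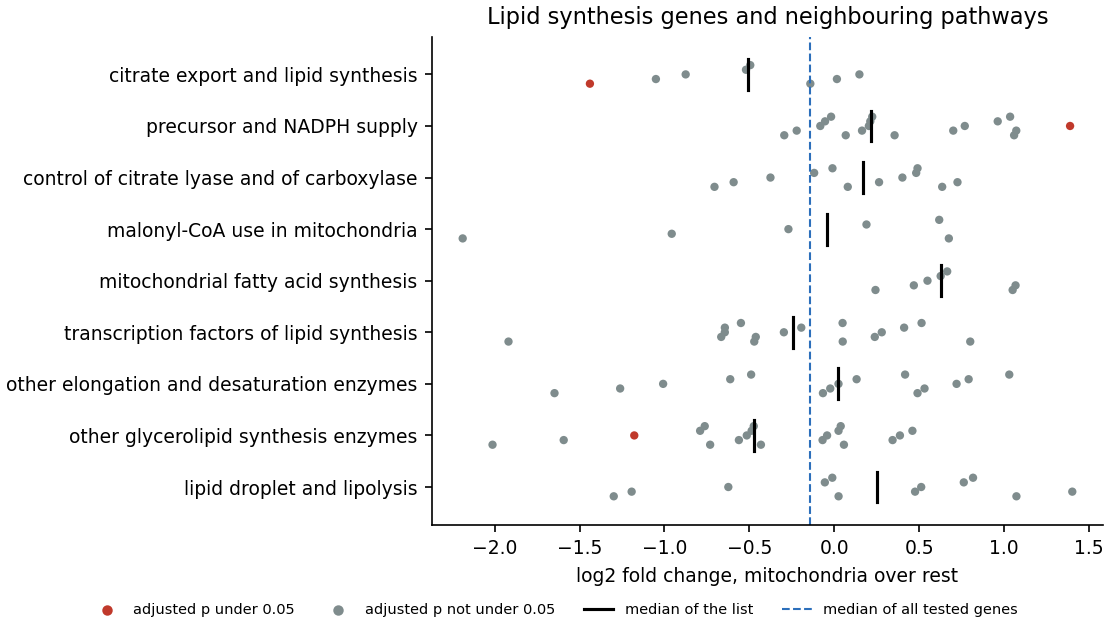
Log2 fold change, mitochondria over rest, of the lipid synthesis genes and of the 105 tested genes in the 8 lists around them, 1 point a gene, red for an adjusted p under 0.05, with a black bar at each list's median and a dashed line at the median of all tested genes (-0.14). List medians run from -0.51 in lipid synthesis and -0.47 in glycerolipid synthesis to 0.63 in mitochondrial fatty acid synthesis, and 3 points are red.

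Other cell types could carry lipid synthesis mRNA, fat cells first of all. Of 10 adipocyte markers, 4 were listed, and Adipoq, Plin1, Cidec, Lep, Retn and Ucp1 had no row. The listed ones summed to 787 and 725 normalized counts in mitochondria and 813 and 732 in rest, most of it Fabp4, which endothelial cells also express. The 6 endothelial markers, led by Kdr, summed to 1639 and 1433 in mitochondria and 2830 and 2506 in rest. The 6 fibroblast markers, led by Col3a1, summed to 8382 and 3550 in mitochondria and 2236 and 3180 in rest, and the 5 macrophage markers, led by Lyz2, to 367 and 217 and to 121 and 194. The 5 blood markers, led by Hba-a2, which has a near-identical copy, summed to 50 and 341 in mitochondria and 824 and 440 in rest. No marker of these 5 cell types was called, and 1 of the 9 cardiomyocyte markers, Myl3, was called higher. The part of these cells in the members' differences was not tested.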

How the data were processed

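Total RNA of 2 mitochondrial and 2 rest libraries was prepared with a stranded low-input kit and read as single ends of 75 bases. Per the labels, the submitters' processing notes name Trimmomatic 0.39, STAR 2.7.10a, featureCounts 2.0.2 and DESeq2 1.30.1, with the mm10 build. Reads touching exons were counted by gene, and those on several genes or places were dropped. Whether counting used strand is not given in the sources used here. The deposited signal is these counts divided by a size factor per library and rounded by the authors. Whole reads could not be recovered for the rest libraries, so no count model was run. Values were tested as log2(normalized count + 1) in limma 3.58.1 (R 4.3.3) with a mean-variance trend, for genes that reached 10 normalized counts in 2 or more libraries, all 4 libraries in 1 fit without a block, two-sided, and adjusted by Benjamini-Hochberg over 12150 genes. Fold changes on this scale understate those of low genes. The 95% intervals are limma's. The steps were run on simulated data as well. For the limma fit, all simulated libraries had the same spread besides counting error, so unequal spread between the fractions was not tried. Reads were estimated by a fit to how often each low value occurs, and they cover counting error only. Levels per kilobase used merged exons of GENCODE M21. The members, the 8 gene lists and the 7 marker lists were chosen with earlier results of these data known, and 1 marker list is not reported here. Genes named from a list were those called and the highest per kilobase. The genes named besides were Bckdk and Ppm1k, the highest marker of each reported cell type, and those nearest to Acly. Cpt1b, Gm5182 and Mcat fall outside this rule and were named after their values were seen, as was Myl3. Alternatives changed the scaling, pseudocount, filter, block, length measure and libraries used.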

Additional observations from a re-analysis of the deposited data

How the results depend on the processing

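No member was called higher under any setting run, and the members' median stayed below that of all tested genes in each. The count of members called lower (1, Acacb) became 8 when libraries were scaled to their totals, 0 with a pseudocount of 0.1, 2 with genes of a mean above 50 normalized counts (Acacb and Acaca), and 0 in all 4 fits that left out a library, in which 0 genes were called over the whole table in either direction (468 to 3324 lower and 590 to 2333 higher at an unadjusted p under 0.05, limma). Those fits leave 1 library in a fraction, assumed to vary like the other fraction. Scaling to the total moved the median of all genes to -3.93 and that of the members to -4.41, with Scd1 at -3.73 and Dgat2 at -3.94. Leaving out a library gave -0.65 to 0.95 for Scd1, -0.35 to 0.070 for Scd2, -0.073 to 0.10 for Dgat2, and -0.71 to -0.41 for the members' median. Over all genes, 262 were higher and 169 lower; scaling to totals gave 2 and 12022, to nuclear protein-coding totals 615 and 412, a pseudocount of 0.1 gave 0 and 0 (1694 and 1754 unadjusted), a pseudocount of 10 gave 536 and 580, a mean above 50 gave 790 and 670, and no filter gave 630 lower. The cause was not tested. With the replicate number as a block, 470 were higher and 309 lower, and Acacb kept its call (adjusted p 0.0284). Deviations of libraries with the same number correlated at 0.13 across genes, and nothing states that a number marks an animal. By the longest transcript instead of merged exons, levels per kilobase in rest were 20.9 for Acly, 9.04 for Acaca, 18.5 for Dgat1 and 92.2 for Dgat2. Depth limits members with few mitochondrial reads: Slc25a1 had about 8 and 3 and Dgat1 about 4 and 9.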
